A study of Mus musculus with 36 samples.

Results

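The 8 genes below mark regulatory T cells and were followed through RNA-seq libraries of mouse CD4+ T cells: Foxp3, Il2ra, Ikzf2, Ikzf4, Nrp1, Tnfrsf18, Lrrc32 and Itgae. They were chosen by name, as 8 of the 56748 genes in the deposited table, and each name matched 1 row. The study compared knock-out (KO) with wild-type (WT) cells of 2 mouse lines of mixed 129/Sv x C57BL/6 background, in sex-matched littermates 6 to 12 weeks old. In the HP1a line a floxed Cbx5 allele had been excised with CMV-cre, so that HP1α was missing from every cell of the mouse, and WT littermates were the controls. In the HP1g line a floxed Cbx3 allele was excised by Cd4-cre, so that HP1γ was lost in T cells, and the controls carried floxed alleles without cre. Both proteins read methylated histone H3 and take part in silencing.

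Each genotype was sampled under 3 conditions. The naive libraries hold CD4+ T cells purified from the mice, mostly CD62L+ with little or no CD44. The other libraries came from lethally irradiated C57BL/6 hosts that received bone marrow of C57BL/6 and of semi-allogeneic B6D2F1 mice in equal parts, together with naive CD4+ T cells of the mutant or control mice. Conventional T cells (Tconv) were sorted from the spleen 3 weeks later as CD4+ cells of donor type with a Vβ6 receptor chain, which recognises the allogeneic marrow. Tconv with Treg came from hosts that had also received WT regulatory T cells (Treg) expanded in culture. These Treg were taken from C57BL/6 mice whose Foxp3 gene drives the surface protein Thy1.1, and the sort of Tconv kept Thy1.1- cells only. A Tconv that began to express Foxp3 would not carry Thy1.1 and would stay in the gate. A gene count does not tell Thy1.1 from Thy1.2, and in bulk RNA a Treg that passed the gate cannot be told apart from a Tconv expressing the same gene. Fewer cells of a type and less RNA per cell cannot be told apart either.

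The 2 lines, 2 genotypes and 3 conditions gave 12 groups, each with 3 libraries. One library, the third of HP1g KO Tconv with Treg, was set aside, as the authors did for its GC content, share of exonic reads and uneven coverage. That group therefore has 2 libraries, and 35 were used in all. The libraries held between 37029519 and 63042245 estimated counts. Naive and grafted libraries, and the 2 lines, carry separate sample series in the labels, so series and condition, and series and line, cannot be told apart. The labels do not tie libraries to single hosts, so that p-values measure the spread between these libraries, which may be technical. Cd3e (820 ± 38.5 to 1350 ± 253 CPM by group, SD, n = 3 in both of these groups) and Cd4 were high in every group. Trbv19, the gene of Vβ6, made up 7.18 to 9.69% of the counts of V-beta genes in naive libraries and 47.1 to 91.7% in grafted ones. Cbx5 was 10.9 ± 1.55 CPM in naive HP1a KO against 22.3 ± 3.42 CPM in WT, and Cbx3 was 71.4 ± 8.4 CPM in naive HP1g KO against 141 ± 50.9 CPM in WT. CPM are estimated counts scaled to library size with TMM factors, as the cpm function of edgeR gives them.

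Regulatory T cells restrain other T cells, and Foxp3 is the transcription factor that defines them. Foxp3 is held on by signals through the interleukin 2 receptor, whose high-affinity form contains CD25, the product of Il2ra, and which acts through the STAT5 proteins. Ikzf2 (Helios) and Ikzf4 (Eos) encode zinc finger factors of the Ikaros family, and Eos works with Foxp3 in repression. The other members are surface proteins. Neuropilin 1 (Nrp1) binds semaphorins, GITR (Tnfrsf18) is a costimulatory receptor, GARP (Lrrc32) holds latent TGF-β on the cell surface, and CD103 (Itgae) pairs with the integrin chain β7 to bind E-cadherin. Several of the members are not restricted to Treg, since activated conventional T cells can induce CD25, GITR and, in mice, Helios and neuropilin 1.

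Foxp3 lies on the plus strand of chromosome X (GRCm39, 7439883 to 7461484). Il2ra (chromosome 2, 11647618 to 11698004), Lrrc32 (7, 98138490 to 98151388), Nrp1 (8, 129085085 to 129231082), Tnfrsf18 (4, 156110621 to 156113352) and Itgae (11, 72981409 to 73039917) also lie on the plus strand. Ikzf2 (1, 69570373 to 69727004) and Ikzf4 (10, 128466712 to 128505227) lie on the minus strand. Exons of Foxp3 share 853 bases with the noncoding gene Flicr on the same strand and 590 bases with Ccdc22 on the opposite strand. They also share 373 bases with Gm36995 and 266 with Ppp1r3f, both on the opposite strand. Other members share exon bases with counted noncoding genes too. Tnfrsf18 shares 547 with Gm16008, Ikzf4 200 with Gm26876, Ikzf2 144 with Gm29114 and Nrp1 80 with Mir1903. Since the libraries did not keep strand, reads in such stretches could not be assigned with certainty. Flicr stayed at or below 2.52 ± 0.39 CPM in every group. Ccdc22 was 48.9 ± 5.72 CPM in naive HP1a WT cells, 30 ± 4.22 CPM in Tconv and 16.9 ± 5.38 CPM in Tconv with Treg, an order opposite to that of Foxp3. HP1a KO also had opposite orders. In HP1g WT, Ccdc22 (56, 27.7 and 25.2 CPM) and Foxp3 (6.26, 4.87 and 4.17 CPM) fell in the same order. In HP1g KO, Foxp3 fell from 7.24 CPM in naive cells to 2.19 CPM in Tconv. Ccdc22 fell there from 57.2 to 23.6 CPM, Flicr from 2.3 to 0.433, Ppp1r3f from 12.6 to 6.97 and Gm36995 from 12.5 to 5.9. The part of shared reads in the Foxp3 values was not tested.

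RefSeq promoter windows, 250 bases before to 50 bases after a start site in GRCm38.p6, were found for 4 of the 8 members. Those of Foxp3, Il2ra and Tnfrsf18 are shown because Foxp3 was called in 1 of 4 comparisons of Tconv with naive cells, whereas Il2ra and Tnfrsf18 were called in all 4. Nrp1 was also called in all 4, and its window, not printed, held no match to the motifs below. All are plus-strand windows read 5′ to 3′. Of 8 short motifs searched on both strands, the capitals mark matches to 3. The STAT motif is TTCNNNGAA. The NFAT motif is GGAAAA, and where it lies on the other strand its complement stands in capitals. The TATA box motif is TATAAA.

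Foxp3, chrX:7579426-7579725: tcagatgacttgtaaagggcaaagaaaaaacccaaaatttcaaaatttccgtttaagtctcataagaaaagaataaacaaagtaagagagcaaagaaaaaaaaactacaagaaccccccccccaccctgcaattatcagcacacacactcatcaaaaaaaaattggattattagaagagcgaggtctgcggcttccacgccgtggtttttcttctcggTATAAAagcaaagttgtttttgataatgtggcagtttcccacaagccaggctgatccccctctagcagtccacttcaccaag
Foxp3, chrX:7580233-7580532: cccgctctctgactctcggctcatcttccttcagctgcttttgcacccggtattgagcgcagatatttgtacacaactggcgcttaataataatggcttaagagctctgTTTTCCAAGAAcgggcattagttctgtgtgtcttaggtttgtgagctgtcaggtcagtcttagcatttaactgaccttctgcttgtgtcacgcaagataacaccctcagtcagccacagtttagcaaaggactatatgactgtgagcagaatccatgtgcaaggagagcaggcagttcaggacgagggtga
Il2ra, chr2:11642542-11642841: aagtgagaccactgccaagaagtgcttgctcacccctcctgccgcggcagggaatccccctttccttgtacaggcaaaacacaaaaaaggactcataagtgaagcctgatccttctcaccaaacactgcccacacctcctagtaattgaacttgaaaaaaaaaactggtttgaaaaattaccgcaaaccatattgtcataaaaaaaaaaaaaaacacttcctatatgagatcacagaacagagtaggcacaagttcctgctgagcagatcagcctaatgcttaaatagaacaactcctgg
Tnfrsf18, chr4:156026072-156026371: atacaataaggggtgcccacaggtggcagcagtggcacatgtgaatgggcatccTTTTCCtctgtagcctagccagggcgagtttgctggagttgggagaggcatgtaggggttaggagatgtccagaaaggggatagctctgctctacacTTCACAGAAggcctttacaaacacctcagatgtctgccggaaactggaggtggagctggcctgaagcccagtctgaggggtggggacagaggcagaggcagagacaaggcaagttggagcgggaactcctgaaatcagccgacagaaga

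The first window of Foxp3 held TATAAA 32 bases before the start site. The second held TTCCAAGAA at 139 and TTTTCC at 141 bases before its start site, and these 2 matches overlap. The window of Tnfrsf18 held TTCACAGAA 99 and TTTTCC 196 bases before the start site, and that of Il2ra held none of the 8 motifs. Of 32851 promoter windows of the same length, 8.3% held the STAT letters, 23.4% the NFAT letters and 13.6% the TATA letters. The other 5 motifs searched (forkhead TGTTTAC, RUNX TGTGGT, AP-1 TGANTCA, ETS CCGGAAG and CRE TGACGTCA) were not found in these windows. A match is a description of the letters and not a bound site.

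Members were first compared with each other on CPM per kilobase of exon. Tnfrsf18 had the highest level of the 8 genes in every group, from 41.9 CPM per kilobase in naive HP1g KO to 169 CPM per kilobase in HP1g KO Tconv with Treg. Naive cells ranked Foxp3 second, with 1.37 to 1.95 CPM per kilobase, followed by Ikzf4 with 1.03 to 1.55. Itgae was last in naive cells, at 0.0324 to 0.0444 CPM per kilobase. In Tconv the order changed, and Nrp1, Il2ra and Itgae stood above Foxp3 in each of the 4 groups.

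**Figure D1:**
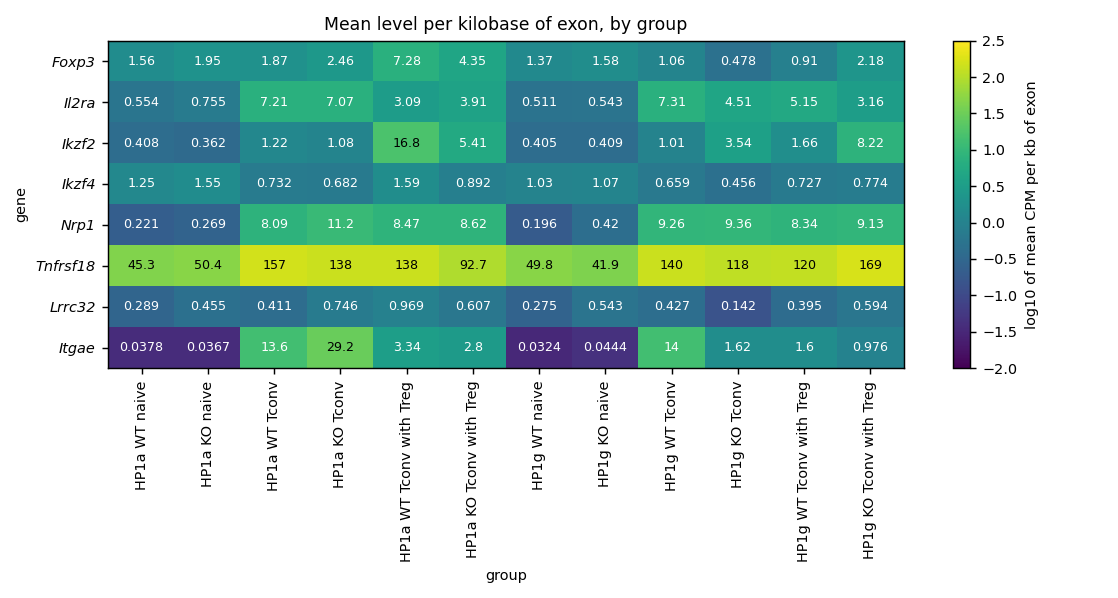
Mean CPM per kilobase of exon of the 8 genes (rows) in the 12 groups (columns), printed in each cell and coloured on a log10 scale. Tnfrsf18 is highest throughout, Itgae is lowest in the 4 naive groups, and Ikzf2 reaches its highest mean, 16.8, in HP1a WT Tconv with Treg.

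Activation was examined first, by comparing Tconv with naive cells of the same genotype. Calls here are genes whose adjusted p in edgeR's quasi-likelihood test over all genes was below 0.05 and whose log2 fold change exceeded 1 in size. The same 5 members were called higher in Tconv in all 4 comparisons, namely Il2ra, Ikzf2, Nrp1, Tnfrsf18 and Itgae. Of the 8 members, 5 were called in HP1a WT (23.1% of all genes tested were called), 6 in HP1a KO (19.7%), 5 in HP1g WT (23.5%) and 8 in HP1g KO (23.1%). The median log2 fold change of the members was 1.69, 1.53, 1.4 and 2.29, against -0.04, -0.01, -0.03 and 0.02 over all genes tested. WT and KO cells of a line were each compared with their own naive cells, so these 4 comparisons share no library.

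Il2ra was tightly grouped in naive cells and separated from Tconv without overlap. In HP1a WT the naive libraries had 3.07, 3.38 and 3.04 CPM and the Tconv libraries 42.2, 41.8 and 39.5 CPM. The log2 fold change was 3.7 ± 0.13 (SE, edgeR adjusted p = 3.95e-07), and it was 3.24 in HP1a KO, 3.83 in HP1g WT and 3.07 in HP1g KO.

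Nrp1 rose more than Il2ra on the fold scale. Its level was 2.94, 3.69 and 3.49 CPM in naive HP1a WT libraries and 114, 166 and 89.7 CPM in Tconv, a log2 fold change of 5.19 ± 0.25 (edgeR adjusted p = 2.75e-06). In HP1g KO the log2 fold change was 4.5 ± 0.31, from a naive level of 6.4 ± 1.12 CPM (SD, n = 3). The means of the grafted groups lay between 123 and 170 CPM, and none of the comparisons among them called Nrp1.

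Tnfrsf18 was already abundant in naive cells, at 66.2, 65.4 and 75.7 CPM in HP1a WT, and reached 217, 258 and 242 CPM in Tconv. Its log2 fold change was 1.79 ± 0.1 there (edgeR adjusted p = 3.84e-06) and lay between 1.47 and 1.51 in the other 3 comparisons.

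Itgae changed most. The naive libraries of HP1a WT had 0.386, 0.201 and 0.12 CPM, which rest on 21, 11 and 8 estimated counts, and the Tconv libraries had 26, 177 and 50.5 CPM. The log2 fold change was 8.51 ± 1.12 (edgeR adjusted p = 0.00219). Tconv libraries of one group differed widely, from 6.9 to 185 CPM in HP1g WT, and in HP1g KO they held 24.5, 1.85 and 3.85 CPM. The call in HP1g KO (log2 fold change 5.16, edgeR adjusted p = 0.0162) was lost without any 1 of the 3 naive libraries, at adjusted p = 0.066, 0.0528 and 0.0509. In HP1g WT it was lost without naive replicate 2 (adjusted p = 0.0552).

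Ikzf2 rose less in 3 of the 4 comparisons, with log2 fold changes of 1.59 in HP1a WT, 1.59 in HP1a KO and 1.32 in HP1g WT. In HP1a WT it went from 6.39, 4.82 and 4.78 CPM in naive cells to 25.8, 12.5 and 9.68 CPM in Tconv. HP1g KO Tconv stood higher, at 22.3, 76.4 and 40.3 CPM, and gave 3.14 ± 0.51 (edgeR adjusted p = 0.004). The call in HP1g WT was lost without naive replicate 2 or 3 or Tconv replicate 2 or 3 (adjusted p = 0.0933, 0.102, 0.0695 and 0.106). That in HP1a KO was lost without naive replicate 2 or 3 or Tconv replicate 3 (adjusted p = 0.0506, 0.0669 and 0.0583).

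Foxp3 did not follow these genes. Naive HP1a WT libraries had 8.14, 6.57 and 6.76 CPM and Tconv libraries 12.1, 9.04 and 4.46 CPM, which overlap. In HP1g WT they had 6.06, 7.73 and 4.98 CPM against 9, 4.3 and 1.3 CPM, and in HP1a KO 10.7, 7.75 and 8.4 CPM against 13.1, 7.42 and 13.2 CPM. Only in HP1g KO was Foxp3 called, and it was lower in Tconv, with 6.57, 5.82 and 9.34 CPM in naive libraries and 2.24, 1.89 and 2.43 CPM in Tconv. The log2 fold change was -1.71 ± 0.26 (edgeR adjusted p = 0.00113). Whether this change differed from that of WT cells was not tested by an interaction, and Foxp3 in HP1g KO and WT Tconv was not called different, as described below.

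Lrrc32 was low throughout, at or below 3.54 ± 1.2 CPM in naive cells and Tconv. It was called in HP1g KO, at 2.37, 1.65 and 3.7 CPM in naive libraries and 0.487, 0.544 and 0.985 CPM in Tconv (log2 fold change -1.92 ± 0.44, edgeR adjusted p = 0.008), and in HP1a KO it was called, as higher, without naive replicate 1 (1.42, adjusted p = 0.0341). Ikzf4 was lower in Tconv than in naive cells in each mean. It was called in HP1a KO (log2 fold change -1.17 ± 0.25, edgeR adjusted p = 0.00802) and HP1g KO (-1.21 ± 0.35, adjusted p = 0.0231). In HP1a WT it passed the adjusted p (0.0352) but not the fold threshold, at -0.77. The call in HP1g KO was lost without naive replicate 1 or 3 (adjusted p = 0.075 and 0.0727), and the fold fell under the threshold without Tconv replicate 3.

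**Figure D2:**
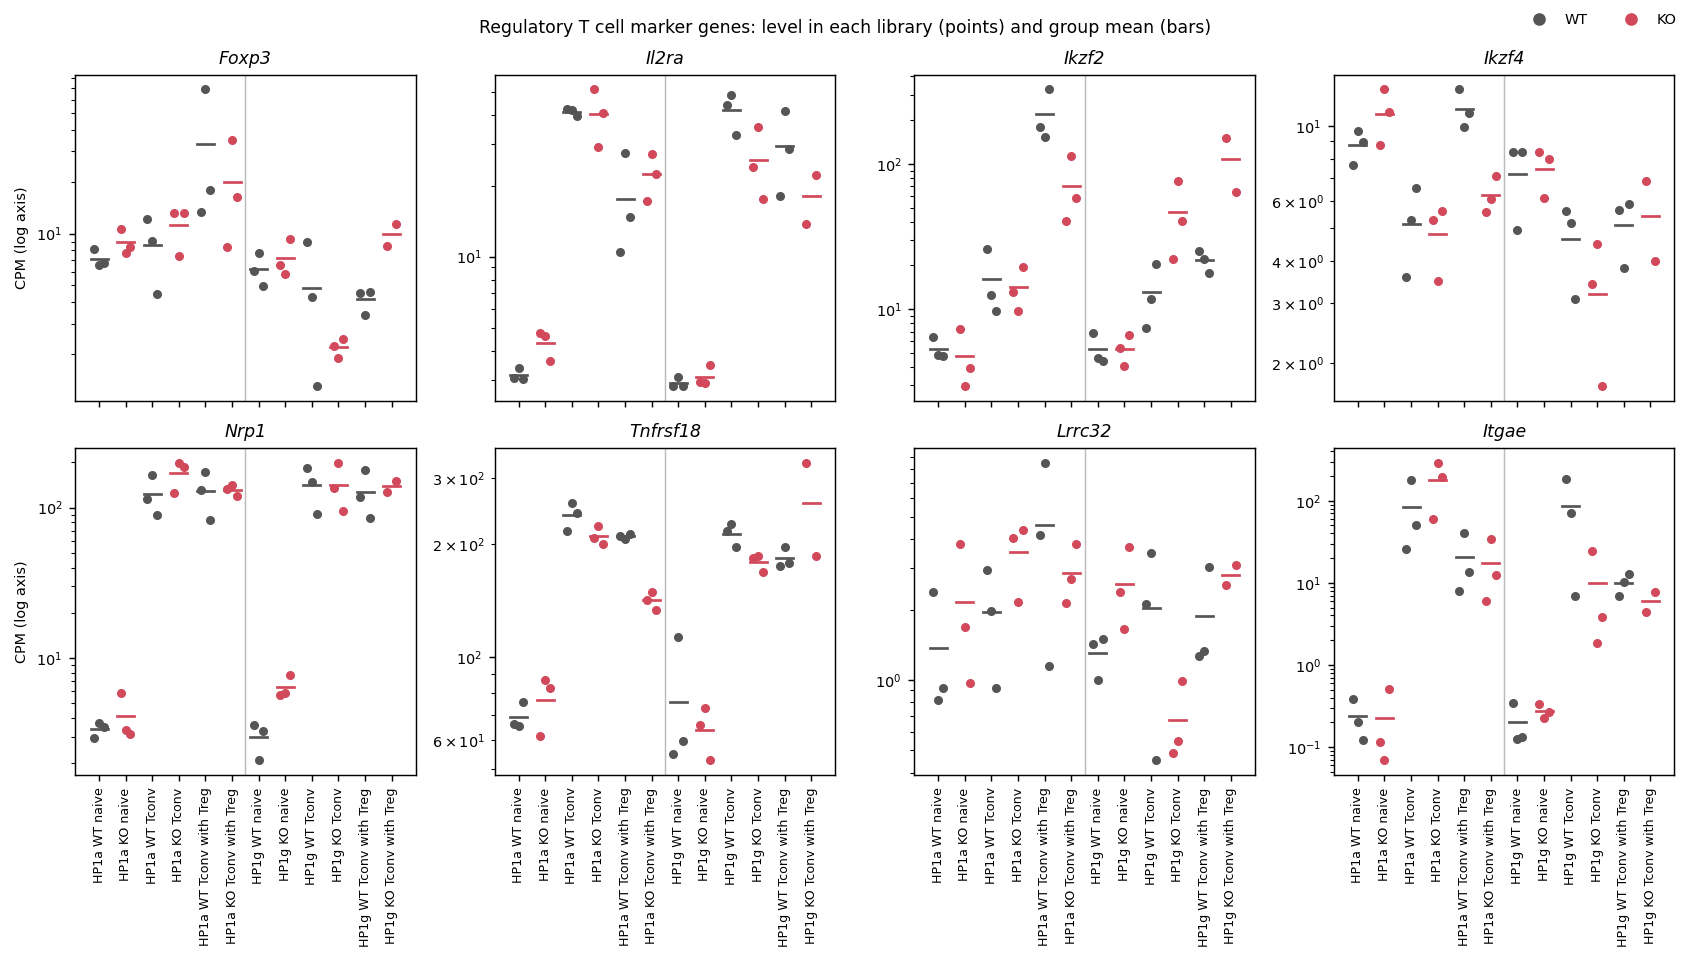
CPM of each of the 8 genes in the 35 libraries, on log axes with their own range for each gene; points are libraries, bars are group means, and the grey line separates the HP1a line (left) from the HP1g line. Il2ra, Nrp1, Tnfrsf18 and Itgae step up from naive to grafted cells, and Foxp3 shows no such step in Tconv without Treg. In HP1a WT Tconv with Treg, Foxp3 spans 13.3 to 68.7 CPM, above naive HP1a WT at 6.57 to 8.14 CPM. Ikzf2 is highest in HP1a WT Tconv with Treg at 154 to 326 CPM.

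Genes that act with the members were counted in the same comparisons. Of 20 Treg effector and surface genes, 15 of 18 tested were called in HP1a WT (14 higher), 16 of 19 in HP1a KO (15 higher), 17 of 20 in HP1g WT (15 higher) and 17 of 20 in HP1g KO (16 higher). Fgl2, a secreted fibrinogen-like inhibitor of T cells, went from 0.214 ± 0.0376 to 166 ± 41.1 CPM in HP1a WT (log2 fold change 9.57). Gzmb, the cytotoxic granule protease, went from 0.124 ± 0.115 to 210 ± 44.8 CPM (10.74). Of 17 partners of the members, 16 were tested and 5, 4, 7 and 5 were called, each of them higher. Il2rb, the β chain of the interleukin 2 receptor, rose by 5.53 on the log2 scale in HP1a WT, Il2 itself by 4.58 and Cish, an inhibitor induced by STAT5, by 4.65. Cdh1, the gene of E-cadherin, rose by 5.37.

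Of 20 regulators and cofactors of Foxp3, 9 were called in HP1a WT (2 higher and 7 lower), 10 in HP1a KO (3 and 7), 12 in HP1g WT (5 and 7) and 9 in HP1g KO (2 and 7). Bach2, a repressor that favours Treg development, fell by 3.86 in HP1a WT, and Lef1, a factor of naive T cells, fell by 2.5. Gata3 rose by 2.26 and Prdm1, the gene of Blimp-1, by 2.15. Markers of other cell types also moved between these groups. The summed level of 10 myeloid markers was 9.38 to 13.3 CPM in naive and 8.45 to 10.2 CPM in Tconv of HP1a WT, but 11.2 to 13.4 against 16.4 to 212 CPM in HP1a KO, 6.48 to 13.2 against 33 to 312 CPM in HP1g WT and 10.2 to 12.5 against 49.3 to 107 CPM in HP1g KO. Each of the 10 myeloid genes had a count in at least 1 library of every group. Of those tested, 2 of 6 were called in HP1a WT (1 higher and 1 lower), and 8, 8 and 9 of 10 were called higher in HP1a KO, HP1g WT and HP1g KO.

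The sum of 8 dendritic cell markers was 1.29 to 3.27 CPM in naive and 15.4 to 22.3 CPM in Tconv of HP1a WT, 1.52 to 2.64 against 8.58 to 33.7 CPM in HP1a KO, 1.45 to 1.67 against 20.5 to 27.4 CPM in HP1g WT and 0.923 to 1.72 against 9.71 to 13.8 CPM in HP1g KO. The groups did not overlap in any of the 4, and 2 of 3, 1 of 3, 1 of 2 and 3 of 3 markers tested were called, each higher. In HP1a WT Tconv the sum was mostly Itgax, the gene of CD11c, at 19, 13.5 and 14.4 CPM, and 4 of the 8 markers (Flt3, Clec9a, Siglech and Cd209a) were at 0 in every library. The sum of 6 CD8 T or NK cell markers went from 43.7 to 50.8 CPM in naive cells to 81.9 to 164 CPM in HP1a WT Tconv, and it was higher in Tconv without overlap in each of the 4 comparisons. There 3 markers were called higher in HP1a WT and 4 in each of the others, and 1 was called lower in each. The defining gene Cd8a was at most 1.63 CPM in Tconv, and Cd8b1 was 19.3 to 24.7 CPM in naive cells and 4.89 to 8.02 CPM in Tconv of HP1a WT. Of 9 B cell markers 1 was called higher in each comparison, and 4, 2, 2 and 4 were called lower. The sum of 8 endothelial cell and platelet markers was lower in Tconv, at 48.6 to 64.5 against 175 to 231 CPM in HP1a WT. Only 1 of these 8 genes had a mean of 1 CPM or more in either group, so this sum is mostly 1 gene. The part of these marker genes' cells in the members' values was not tested.

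Loss of HP1 in naive cells was examined next. None of the 8 members was called in either line by edgeR, where 0.0% of genes tested were called in HP1a and 0.00669% in HP1g. At an unadjusted p under 0.05 there were 0 members in HP1a and 2 in HP1g. The share of all genes at this unadjusted cut is not given, here or below. Counts of members at it therefore have no background to be read against. DESeq2 called 0 in HP1a (0.0837% of genes) and 1 in HP1g (0.208%). Nrp1 had 5.69, 5.82 and 7.68 CPM in naive HP1g KO libraries and 3.58, 2.1 and 3.27 CPM in WT, with no overlap. Its log2 fold change was 1.13 ± 0.28 (edgeR adjusted p = 0.63), and it was the member that DESeq2 called (adjusted p = 0.0399). Lrrc32 was 2.57 ± 1.04 CPM in KO against 1.31 ± 0.269 CPM in WT (log2 fold change 1.01 ± 0.37, edgeR adjusted p = 0.63), also without overlap. The B cell markers summed to 8.06 to 10.6 CPM in these KO and 3.73 to 6.38 CPM in these WT libraries, with none called, and their part in these values was not tested. In the HP1a line the 8 log2 fold changes lay between -0.16 and 0.66. With the replicate number as a block, which pairs these HP1a libraries, 12 genes in all and none of the members were called.

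In Tconv from hosts without Treg, edgeR again called none of the 8 members in KO against WT, with 0.103% of genes called in HP1a and 0.0437% in HP1g. At an unadjusted p under 0.05 there were 0 members in HP1a and 3 in HP1g, and DESeq2 called 0 in both (1.11% and 1.43% of genes). In HP1g, where the replicate numbers also pair the libraries, the block raised the genes called from 7 to 74 and called no member. In HP1g the 3 were Ikzf2 (log2 fold change 1.83 ± 0.57, edgeR adjusted p = 0.439), Il2ra (-0.67 ± 0.27, 0.565) and Tnfrsf18 (-0.23 ± 0.09, 0.559). Ikzf2 was 22.3, 76.4 and 40.3 CPM in KO against 7.45, 11.7 and 20.4 CPM in WT, and every KO library lay above every WT library. The same KO group had the lowest mean of Foxp3 among the 12 groups, with libraries at 2.24, 1.89 and 2.43 CPM, against 9, 4.3 and 1.3 CPM in WT, which overlap. Hosts of these cells had received no Treg, and the library with 76.4 CPM of Ikzf2 held 1.89 CPM of Foxp3. That is a single library of its group, and the source of its Ikzf2 RNA was not tested. Itgae spanned 6.9 to 185 CPM in WT and 1.85 to 24.5 CPM in KO. None of the 20 effector genes, 20 regulators or 16 partners tested was called in KO against WT in Tconv of the HP1g line. In the HP1a line the 8 log2 fold changes lay between -0.17 and 1.11. Myeloid markers summed to 16.4 to 212 CPM in HP1a KO and 8.45 to 10.2 CPM in WT, with none called. Of the CD8 T or NK cell markers 1 of 5 tested was called higher in HP1a. In HP1g, dendritic cell markers summed to 9.71 to 13.8 CPM in KO and 20.5 to 27.4 CPM in WT. B cell markers there summed to 6.9 to 14.1 CPM in KO and 3.58 to 6.63 CPM in WT. The part of these cells in the members' values was not tested.

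The effect of co-injected Treg was compared within each genotype. The most members passed in HP1a WT, where edgeR called 1 of the 8 members (5.96% of genes were called). At an unadjusted p below 0.05 there were 5, with no share of all genes at that cut to set beside them. DESeq2 called 4 members (9.26% of genes). Ikzf2, the member called by edgeR, had 25.8, 12.5 and 9.68 CPM in Tconv and 179, 154 and 326 CPM in Tconv with Treg. The log2 fold change was 3.82 ± 0.47 (edgeR adjusted p = 0.005), a fold of 14.1, and leaving out each library in turn kept it between 3.41 and 4.33 and called.

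Foxp3 was higher in HP1a WT Tconv with Treg, at 13.3, 68.7 and 18 CPM against 12.1, 9.04 and 4.46 CPM, and the groups did not overlap. The log2 fold change of 2 ± 0.66 was not called by edgeR (adjusted p = 0.129), and DESeq2 called it (1.99, adjusted p = 0.0092). Without replicate 2 of Tconv with Treg the log2 fold change was 0.9 (adjusted p = 0.235). Across the 6 fits that leave out 1 library the log2 fold change ran from 0.9 to 2.37, with adjusted p from 0.0742 to 0.38.

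That library also had the highest Il2ra, Itgae and Lrrc32 of its group, at 27.6, 41 and 8.49 CPM, but the lowest Ikzf2. Thy1 was 66.5 CPM in it, against 60.3 and 210 CPM in the other 2 libraries, and Trbv19 made up 71.9% of its V-beta counts, against 61.3 and 67.8%. In HP1a WT Tconv without Treg the Trbv19 share was higher in every library, at 84, 77.2 and 91.7%. The part of this difference in the members' values was not tested. Il2ra was lower with Treg, at 10.5, 27.6 and 14.8 CPM against 42.2, 41.8 and 39.5 CPM (log2 fold change -1.18 ± 0.33, edgeR adjusted p = 0.0801). It was called without replicate 2 of Tconv with Treg (-1.67, adjusted p = 0.0107) and by DESeq2 (adjusted p = 0.00807). Ikzf4 was 5.14 ± 1.49 CPM without Treg but 11.2 ± 1.5 CPM with them (log2 fold change 1.16 ± 0.3, edgeR adjusted p = 0.0568). It was called without replicate 3 of Tconv with Treg (1.17, adjusted p = 0.0373) and by DESeq2 (adjusted p = 0.00216). Itgae was 7.87, 41 and 13.5 CPM against 26, 177 and 50.5 CPM, and its log2 fold change of -1.99 ± 0.82 was not called (edgeR adjusted p = 0.207).

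The wider lists moved in the same comparison. Of 20 Treg effector and surface genes, 11 were called with Treg in HP1a WT (8 higher and 3 lower), with a median log2 fold change of 0.73 against 0.03 over all genes tested. Il10, the suppressive cytokine, was 1.81 ± 1.45 CPM without Treg but 73.8 ± 43.6 CPM with them (log2 fold change 5.38 ± 0.87, edgeR adjusted p = 0.013). Tnfrsf9 (4-1BB) was 161 ± 32.2 against 16 ± 5.27 CPM (3.37 ± 0.31, adjusted p = 0.00169), and Gpr83, a receptor gene abundant in Treg, 12 ± 3.73 against 1.01 ± 0.616 CPM (3.6 ± 0.5, adjusted p = 0.00775). Itgb8, an integrin chain that activates TGF-β, was 23.5 ± 4.2 against 0.171 ± 0.278 CPM (7.19 ± 0.98, adjusted p = 0.00716). Il1rl1, the receptor of interleukin 33, was lower (-2.83, adjusted p = 0.0117).

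Of the 16 partners tested, 6 were called, 1 higher and 5 lower. Cdh1 (-4.95), Cish (-2.48) and Il7r (-2.34) were lower with Treg, as was Sema4a, a ligand of neuropilin 1 (-1.79), and Ikzf3 (Aiolos) was higher (1.86). Of the 20 regulators of Foxp3, 3 were called higher and 3 lower. Nr4a2 (3.46), Myb (3.39) and Bach2 (1.56) were higher, and Satb1, which opens Treg enhancers in the thymus, was lower (-1.77), as was Gata3 (-1.62). Of the myeloid markers 5 of 8 tested were called higher in this comparison, and their sum was 31.8 to 70.7 CPM with Treg against 8.45 to 10.2 CPM without. The CD8 T or NK cell markers summed to 154 to 499 CPM with Treg and 81.9 to 164 CPM without, which overlap, and 1 of 4 tested was called higher. Eomes, a transcription factor of cytotoxic and memory T cells, was 128, 81.3 and 264 CPM with Treg against 16, 15.6 and 11 CPM without, and Cd8a was at most 0.324 CPM with Treg. Of the dendritic cell markers 1 of 3 tested was called lower, and their sum was 9.54 to 14.6 against 15.4 to 22.3 CPM. The B cell markers overlapped, at 9.23 to 37.1 against 5.46 to 19.8 CPM, with none called. The part of these cells in the members' values was not tested.

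In HP1a KO cells edgeR called none of the 8 members with Treg (0.44% of genes were called). There were 4 at an unadjusted p under 0.05, and DESeq2 called 2 (2.5% of genes), Ikzf2 and Itgae. Ikzf2 was 40.6, 113 and 58.5 CPM with Treg against 13.2, 9.7 and 19.5 CPM without, with no overlap (log2 fold change 2.33 ± 0.44, edgeR adjusted p = 0.0895). Itgae was 6.09, 33.8 and 12.5 CPM against 60.2, 288 and 196 CPM, also with no overlap (-3.37 ± 0.85, edgeR adjusted p = 0.154). Replicate 2 with Treg, highest of its group in Foxp3, Ikzf2 and Itgae, had Trbv19 at 47.1% of V-beta counts, against 69.3 and 73.2%. The Trbv19 shares without Treg were 65.1, 79.1 and 73.6%, and the part of these shares in the members' values was not tested. Tnfrsf18 was 142, 149 and 133 CPM against 208, 223 and 200 CPM. Its log2 fold change of -0.56 ± 0.08 passed the adjusted p (0.0346) but not the fold threshold. Il2ra gave -0.84 ± 0.24 (edgeR adjusted p = 0.169). Of the lists, 0 effector genes, 2 regulators (Nr4a2 higher by 1.97, Satb1 lower by 1.12) and 1 partner (Cish, -1.25) were called. No marker of another cell type was called. The B cell markers summed to 18.4 to 64.3 CPM with Treg and 6.63 to 15.7 CPM without, with no overlap, and the myeloid markers to 179 to 591 and 16.4 to 212 CPM, which overlap.

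The test of the difference between the Treg effects of HP1a KO and WT called none of the 8 members by edgeR (0.139% of genes were called) or DESeq2 (1.84%). The 2 with an unadjusted p under 0.05 were Ikzf2 (log2 difference -1.49 ± 0.65, edgeR adjusted p = 0.485) and Tnfrsf18 (-0.41 ± 0.14, adjusted p = 0.316). The 8 differences lay between -1.55 and 0.35, and their median was -0.96 against -0.02 over all genes tested.

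In the HP1g line edgeR called no member with Treg in WT (0.0126% of genes called) or KO cells (0.0% called). In each, 2 members had an unadjusted p under 0.05, and DESeq2 called 0 in WT (0.333% of genes) and 2 in KO (1.62%). In WT Tconv with Treg, Foxp3 stood at 4.54, 3.37 and 4.59 CPM and Ikzf2 at 25, 22.3 and 17.7 CPM, and both overlapped with Tconv from hosts without Treg. Itgae in WT was 6.98, 10.1 and 12.8 CPM with Treg and 185, 70.3 and 6.9 CPM without, which overlap (log2 fold change -3.13 ± 1.12, edgeR adjusted p = 0.708). Tnfrsf18 gave -0.22 ± 0.09 (adjusted p = 0.713).

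Both members named by DESeq2 in HP1g KO were higher with Treg. Foxp3 was 8.51 and 11.4 CPM in the 2 libraries with Treg and 2.24, 1.89 and 2.43 CPM in the 3 without, with no overlap (log2 fold change 2.18 ± 0.28, unadjusted p = 0.000222 and adjusted p = 0.314 in edgeR's quasi-likelihood test). Lrrc32 was 2.54 and 3.09 CPM against 0.487, 0.544 and 0.985 CPM (2.06 ± 0.44, edgeR adjusted p = 0.503). DESeq2 gave adjusted p = 1.23e-09 for Foxp3 and 0.00571 for Lrrc32. In the same libraries the B cell markers summed to 24.2 and 26.2 CPM with Treg and 6.9 to 14.1 CPM without, and none was called. Ikzf2, at 151 and 63.7 CPM, overlapped with the Tconv libraries because replicate 2 without Treg held 76.4 CPM. The difference between the Treg effects of HP1g KO and WT was not called for any member by edgeR (0.0% of genes called) or DESeq2 (0.0543%). The 3 with an unadjusted p under 0.05 were Foxp3 (log2 difference 2.38 ± 0.77), Lrrc32 (2.14 ± 0.94) and Tnfrsf18 (0.71 ± 0.26), each with an adjusted p of 1.0 in edgeR. Without replicate 2 of KO Tconv with Treg, which leaves 1 library in that group, the log2 difference of Tnfrsf18 was 1.08.

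**Figure D3:**
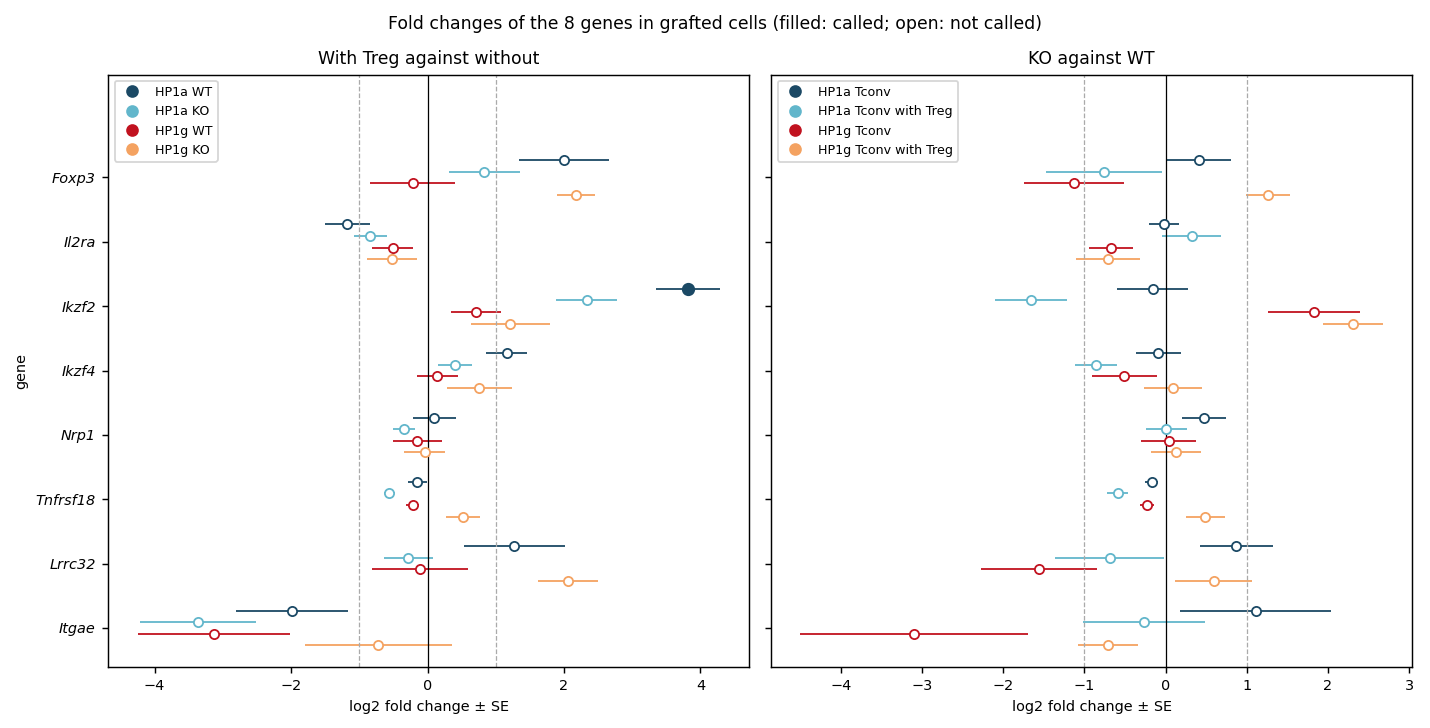
Log2 fold changes with their standard errors (edgeR) of the 8 genes, for Tconv with Treg against Tconv (left) and KO against WT in grafted cells (right); filled points are called, open points are not, and dashed lines mark a log2 fold change of 1 in either direction. Ikzf2 in HP1a WT with Treg, at 3.82, is the single filled point, and in cells with Treg Ikzf2 lies at -1.66 for HP1a and 2.31 for HP1g in KO against WT.

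Finally KO and WT cells from hosts with Treg were compared. The edgeR test called none of the 8 members in HP1a (0.123% of genes called) or HP1g (0.0%), and DESeq2 called 1 in HP1a (3.83%) and 2 in HP1g (3.57%). At an unadjusted p under 0.05 there were 3 members in HP1a and 2 in HP1g. These comparisons share libraries with those of the Treg effect, so the values below are not independent of the ones above.

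In HP1a, Ikzf2 was lower in KO, at 40.6, 113 and 58.5 CPM against 179, 154 and 326 CPM in WT, and the groups did not overlap. The log2 fold change was -1.66 ± 0.44 (edgeR adjusted p = 0.196, DESeq2 adjusted p = 0.00469). Ikzf4 was 5.58, 6.08 and 7.12 CPM in KO against 12.8, 9.89 and 10.9 CPM in WT (-0.86 ± 0.26, edgeR adjusted p = 0.238). Tnfrsf18 was 142, 149 and 133 CPM against 210, 206 and 213 CPM (-0.59 ± 0.13, edgeR adjusted p = 0.134). Neither gene had overlapping groups, and KO was the lower. The share of all genes without overlap was not computed, so lack of overlap, here and elsewhere, only describes these libraries. Foxp3 was 8.39, 35 and 16.3 CPM in KO and 13.3, 68.7 and 18 CPM in WT, which overlap. Of the 20 effector genes 1 was called, Tnfrsf9, which stood at 161 ± 32.2 CPM in WT but 34.8 ± 8.86 CPM in KO (log2 fold change -2.24 ± 0.24, edgeR adjusted p = 0.0328). Of the 16 partners tested 1 was called, Cish, which was higher in KO (1.21 ± 0.14, edgeR adjusted p = 0.0328). Myeloid markers summed to 179 to 591 CPM in KO and 31.8 to 70.7 CPM in WT, without overlap, and their part in these values was not tested.

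In HP1g Ikzf2 was higher in KO, at 151 and 63.7 CPM against 25, 22.3 and 17.7 CPM in WT, with no overlap. Its log2 fold change was 2.31 ± 0.37 (edgeR adjusted p = 0.182, DESeq2 adjusted p = 4.58e-07). Without replicate 2, which leaves 1 library in the KO group, it was 2.78. Foxp3 was 8.51 and 11.4 CPM in KO against 4.54, 3.37 and 4.59 CPM in WT, also with no overlap (1.26 ± 0.27, edgeR adjusted p = 0.212, DESeq2 adjusted p = 0.00109). Myeloid markers summed to 95.2 to 237 CPM in KO and 111 to 118 CPM in WT, which overlap, and B cell markers to 24.2 to 26.2 CPM in KO and 4.77 to 15.7 CPM in WT, which do not. Their part in these values was not tested. None of the 20 effector genes, 20 regulators or 16 partners was called.

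The difference of the 2 KO effects was tested directly in 1 fit over the 11 libraries. edgeR called 1 of the 8 members (2.72% of genes were called) and DESeq2 called 2 (7.47%). Ikzf2 was the member called by edgeR, with a log2 difference of -3.97 ± 0.65 between the KO effect in HP1a and that in HP1g (adjusted p = 0.0162). Across the 11 fits that leave out 1 library the log2 difference ran from -4.46 to -3.18. The call was lost without HP1a KO replicate 3 (edgeR adjusted p = 0.0571) or HP1g WT replicate 2 (edgeR adjusted p = 0.0546). Leaving out a library of HP1g KO leaves 1 in that group, so only the size is given. Without its replicate 1 the difference was smaller, at -3.18. With the left-out library of HP1g KO included, the difference was -3.91 with adjusted p = 0.056. Tnfrsf18 had a log2 difference of -1.07 ± 0.27 (edgeR adjusted p = 0.0644) and was called by DESeq2 (adjusted p = 0.0116). Without replicate 2 of HP1g KO, which leaves 1 library in that group, its difference was -1.42. Foxp3 (-2.01 ± 0.9, edgeR adjusted p = 0.274) and Ikzf4 (-0.94 ± 0.42, edgeR adjusted p = 0.264) were not called by either tool. Of the 20 effector genes 8 were called, each with a lower KO effect in HP1a, led by Il10 (-7.5), Itgb8 (-5.9), Tnfrsf9 (-4.77), Gpr83 (-3.66) and Tigit (-3.47). Of 17 partners 4 were called, Il7r (3.68), Cish (2.84) and Sema4a (2.1) with a higher and Ikzf3 (-1.67) with a lower KO effect in HP1a. Myb (-3.28) was the single regulator called. As the lines were separate sample series, line and experiment cannot be told apart.

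The relation between the members was read from the 23 grafted libraries, which differ in line, genotype and whether the hosts received Treg, as a description of log2(CPM + 1). Lrrc32 followed Foxp3 most closely of the members (Pearson r = 0.787), and it still did so for deviations from the group means (0.667). Ikzf4 gave 0.635 across libraries but 0.0418 within groups, and Ikzf2 0.468 and -0.000174. Il2ra (-0.128 across libraries, 0.572 within groups) and Itgae (0.315 and 0.595) followed Foxp3 within groups. Tnfrsf18 was unrelated to Foxp3 by either measure (-0.0395 and -0.082). Across libraries, Il2ra and Ikzf2 ran in opposite directions (-0.719), and within groups they did not (0.0256).

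Ratios of 2 genes within a library do not depend on the scaling between libraries. For each CPM of Foxp3 the 12 naive libraries held 0.379 to 1.13 CPM of Ikzf2. HP1a Tconv libraries held 1.01 to 2.17, HP1a KO with Treg 3.23 to 4.84, and HP1a WT with Treg 13.5, 2.25 and 18. In HP1g the ratios in Tconv were 0.828, 2.71 and 15.7 for WT and 9.94, 40.3 and 16.6 for KO, and with Treg 5.5, 6.63 and 3.86 for WT and 17.8 and 5.58 for KO. The highest single ratio, 40.3, was in a KO library from a host group without Treg, while the ratios of several groups overlap. What sets these ratios was not tested. The ratio of Lrrc32 to Foxp3 was narrower, from 0.0632 to 0.815 over all 35 libraries.

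**Figure D4:**
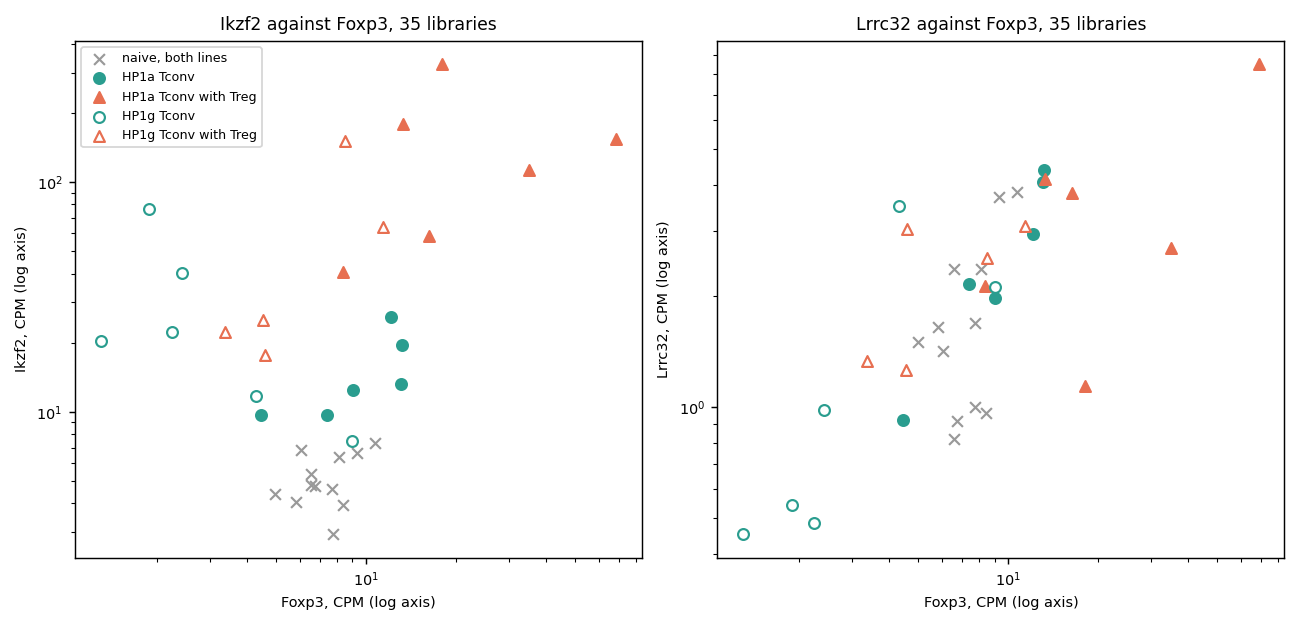
Ikzf2 (left) and Lrrc32 (right) against Foxp3 in the 35 libraries, in CPM on log axes; crosses are naive cells, circles Tconv, triangles Tconv with Treg, filled for HP1a and open for HP1g. Ikzf2 is high at both ends of the Foxp3 range, with 76.4 CPM at 1.89 CPM of Foxp3 and 154 CPM at 68.7, while Lrrc32 is below 1 CPM in the 4 libraries with the lowest Foxp3.

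The 5 genes outside the list most like Foxp3 were taken across the 23 grafted libraries, from 12789 genes whose mean was 1 CPM or more. They were Id3 (Pearson r = 0.859), Gpr137 (0.857), Stambpl1 (0.846), Rgs10 (0.822) and Fcrl1 (0.817), and Id3 encodes an inhibitor of E protein transcription factors. For deviations from group means the 5 were Shld2 (0.843), Mvk (0.838), Insig1 (0.831), Zdhhc13 (0.829) and Sdad1 (0.821). Ccdc22, which overlaps Foxp3 on the other strand, had r = -0.284 and 0.195. Members and neighbours in these orders share libraries and depth, and no p is given for them. Marker sums of other cell types also differed between these libraries, and their part in the correlations was not tested.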

How the data were processed

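RNA-seq libraries were made with SMART-Seq amplification, which does not keep strand, and paired-end sequencing. Per the labels and the study's methods, the authors trimmed the reads, mapped them to GRCm39 by STAR, using Ensembl genes, and obtained gene values from Salmon. The deposited values are estimated counts per gene (expected counts), neither scaled nor filtered. Of the values 61.4% were 0, and 55.7% of those above 0 were exactly whole. Salmon divides reads among genes, and genes with overlapping neighbours are less certain.

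Columns were matched to samples by name and samples to groups by title. Counts were rounded and tested with edgeR's quasi-likelihood test (edgeR 4.0.16, R 4.3.3) with robust estimation, TMM scaling and filterByExpr, each fit holding only libraries that its comparison uses. P-values were adjusted by Benjamini-Hochberg across all genes tested. Calls needed an adjusted p below 0.05 and a log2 fold change larger than 1 in size. DESeq2 1.42.0, the authors' tool, was an alternative, and its percentages are over genes with an adjusted p. SD is over libraries, and SE is that of the log2 fold change. Groups do not overlap where every library of 1 group lies above every library of the other. How many of all genes this holds for was not computed. A count of 0 would allow up to 0.0451 to 0.0819 CPM (3 counts), for counting error only.

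The members, the lists of genes and the tests were chosen with earlier results of these data known. All 8 members were followed in each of the 17 comparisons, with log2 fold changes given singly where the unadjusted p was under 0.05, a choice made after the values were seen, and otherwise as levels or ranges. Of each list of effector genes, regulators and partners, at most 5 called genes with the largest fold were named per comparison, and genes most like Foxp3 were the 5 protein-coding genes with the highest Pearson correlation. Positions are from the GENCODE annotation of GRCm39, and promoter sequences from RefSeq windows of GRCm38.p6.

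Replicate numbers were taken to pair libraries where every equally numbered pair correlated above 0.1 in its deviations from the group means, over 3 pairs. This held for naive HP1a (0.287 to 0.654) and for HP1g Tconv (0.112 to 0.431), each KO against WT. Alternatives were DESeq2, RLE size factors, no filter, no limit on the fold, 1 fit over every library of a line, the replicate block, the left-out library included, and each library left out in turn.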

Additional observations from a re-analysis of the deposited data

Results flagged for a closer look

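The KO effect on Ikzf2 in Tconv with Treg differed between the lines by -3.97 on the log2 scale (HP1a minus HP1g), a difference past the threshold of its own test. Of the library of HP1g KO Tconv with Treg that was left out of every comparison, 4 members lay above the highest of the 3 HP1g WT libraries with Treg. Foxp3 was 10.1 CPM in it, Ikzf2 81.1 CPM, Ikzf4 15.6 CPM and Lrrc32 6.21 CPM. In the same library Tnfrsf18 was 27.1 CPM and Nrp1 56.3 CPM, below the 2 libraries of the group that were kept (186 and 329 CPM, and 128 and 150 CPM). Both also lay below the lowest HP1g WT library with Treg, at 175 and 84.8 CPM. The authors excluded this library for its GC content, share of exonic reads and uneven coverage, so its values may reflect its quality.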

How the results depend on the processing

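The number of members called was recomputed in each of the 17 comparisons. With DESeq2 it was 1 in place of 0 for HP1g KO against WT in naive cells and for HP1a KO against WT with Treg, and 2 in place of 0 for HP1g KO against WT with Treg. DESeq2 also gave 4 in place of 1 for Treg in HP1a WT, 2 in place of 0 in HP1a KO and in HP1g KO, and 2 in place of 1 for the difference between the lines. All libraries of the line in 1 fit gave 1 in place of 0 for KO against WT with Treg in each line, 4 and 1 for the effect of Treg in HP1a WT and KO, and 2 for the difference between the lines. No filter on low counts gave 2 for the Treg effect in HP1a WT, 1 in HP1g KO and 2 for the difference between the lines. No threshold on the fold change gave 1 for the Treg effect in HP1a KO. The left-out library gave 0 in place of 1 for the difference between the lines.

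The replicate block gave 2 members in place of 1 for the Treg effect in HP1a WT and 1 in place of 0 in HP1a KO, in both by adding Itgae, but there the libraries share only a number (correlations from 0.0106 and 0.029). The replicate block kept the number of members called within 1.5 times in the other comparisons. Leaving out 1 library gave 5 to 7 members for Tconv against naive cells in HP1a KO, 5 to 5 in HP1a WT, 3 to 5 in HP1g WT and 6 to 8 in HP1g KO. It gave 1 to 2 for Treg in HP1a WT, 0 to 2 for the difference between the lines, 0 to 1 for HP1g KO against WT with Treg and for the HP1g interaction, and 0 in every other comparison. Where a leave-one-out fit left 1 library in a group, that library was taken to vary like the others. The highest counts for the difference between the lines, HP1g KO against WT with Treg and the HP1g interaction come from such fits. They are not read as calls. Each log2 fold change with an unadjusted p under 0.05 kept its sign under every alternative (57 of 57). Of the 79 with a larger p, 33 changed sign under at least 1 alternative, none of them to a called value. RLE size factors moved no count of members called. The causes were not tested. The highest group means of the members moved by less than 1 SD with DESeq2 size factors or library totals. Depth did not limit the members, apart from Itgae in naive cells.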
